A study of Rattus with 8 samples.

Results

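Egr1, Egr3, Nr4a1, Nr4a2, Nr4a3, Ier2, Ier3, Arc, Npas4 and Klf4 are early response genes, and their messenger RNA was followed in cultured rat neural stem cells after 5 days of treatment. These 10 genes were chosen by symbol from the 18374 genes of the deposited table, with earlier results of these data known. All 10 were found, and 9 of them passed the filter on low counts, the exception being Npas4. There were 4 groups of 2 samples each. The control cells received no treatment, the piezoelectric group was cultured with a piezoelectric material, the ultrasound group was exposed to ultrasound, and the nanosticker group was cultured with piezoelectric nanostickers. The study's title speaks of nanostickers activated by ultrasound, but no label states that the nanosticker cells received it. The composition of either material, the interval between a stimulus and harvest, and the strain and age of the rats are likewise not in the labels. Nor is it stated that the samples of a group were separate cultures, so the p-values below cover the spread between these samples alone, and that spread may be technical.

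Early response genes are transcribed within minutes of a stimulus, from promoters that hold ready-made sites for factors such as SRF and CREB, and no new protein is needed to start them. Growth factors, calcium entry through channels and cell stress all act on them through kinases such as ERK, and most of the messages are short-lived. Egr1 and Egr3 encode zinc finger transcription factors that bind GC-rich sites. Nr4a1, Nr4a2 and Nr4a3 encode orphan nuclear receptors whose activity follows their amount, since they need no known hormone. Npas4 encodes a transcription factor that neurons make on calcium entry, and Klf4 a Kruppel-like factor that is also known from reprogramming to pluripotency. Ier2 encodes a small nuclear protein, and Ier3 a stress-induced protein tied to survival and ERK signalling. Arc encodes a protein of the synapse that takes part in the removal of AMPA receptors.

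The libraries held between 15239133 and 15628667 counts, so 1 read of a gene was worth about the same in each. Markers of several neural lineages were present beside the stem cell genes the label calls for, and their summed levels moved with the groups. The 6 stem and progenitor markers summed to 4901 to 5358 TPM (the deposited level, scaled for transcript length and library) in the controls, 4566 to 4570 TPM with ultrasound and 2951 to 2965 TPM with nanostickers. Most of that sum was Fabp7, at 4727 ± 364 TPM in the controls and 2526 ± 14.4 TPM with nanostickers (mean ± SD, n = 2). In the nanosticker group 4 of the 6 fell and 1, Sox2, rose. The 6 neuronal markers summed to 540 to 545, 453 to 460 and 291 to 298 TPM in the order control, ultrasound and nanosticker. With nanostickers 5 of them fell and 1, Syt1, rose, and with ultrasound none was called. The 5 astrocyte markers summed to 2217 to 2325, 2596 to 2849 and 1208 to 1211 TPM, and all 5 fell with nanostickers, while 2 rose and 2 fell with ultrasound. The 6 oligodendrocyte markers summed to 5063 to 5471, 6811 to 6855 and 17024 to 17187 TPM, with 5 called higher with ultrasound and 6 with nanostickers. The 6 fibroblast and meningeal markers summed to 32.5 to 37.9, 62.2 to 65.3 and 68.8 to 71.1 TPM, with 4 and 3 called higher. The 7 microglial markers summed to 34.5 to 40.8, 28.1 to 36.96 and 1.97 to 2.87 TPM, with all 7 lower in the nanosticker group and at most 2 of them at 0. In the piezoelectric group astrocyte markers summed to 2831 to 3061 TPM and fibroblast markers to 56.8 to 66.9 TPM, with 1 of 5 and 3 of 6 called higher. Endothelial markers were near 0, with a sum of at most 2.15 TPM in any library and at most 3 of 6 markers at 0. Only Kdr of these passed the filter on low counts. It had 20 to 38 reads in the controls and 101 to 107 with nanostickers, where it was called higher (log2 fold change 1.89). In such bulk samples fewer cells of a type and less RNA per cell cannot be told apart, and the part of these shifts in the results on early genes was not tested. The control replicates also differed along transcript length: across genes, the log2 ratio of replicate 1 to replicate 2 had a Spearman correlation of -0.432 with length, against 0.0915 to 0.191 in the other groups.

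The 10 genes spanned a wide range of levels. Ier2 was highest, at 27.3 to 44.9 TPM over the 8 libraries, followed by Egr1 at 23.4 to 39.2 TPM and Ier3 at 19.8 to 36.6 TPM. Ier2 exceeded Egr1 in 8 of 8 libraries, whereas Egr1 exceeded Ier3 in 4 of 8, so the order of the latter pair was not resolved. Nr4a1 came next, at 10.6 to 15.3 TPM, below Ier3 and above Nr4a2 in every library. Nr4a2 stood at 4.78 to 6.45 TPM, Egr3 at 3.07 to 5.16 TPM, Arc at 2.37 to 4.19 TPM and Klf4 at 2.52 to 3.42 TPM, and the ranges of these neighbours overlapped. Nr4a3, at 1.10 to 1.83 TPM, and Npas4, at 0.10 to 0.22 TPM, were lowest in each library. Against the whole table, 75.6% of genes had a lower mean level than Ier2, 71.1% a lower one than Egr1 and 16.9% a lower one than Npas4.

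**Figure D1:**
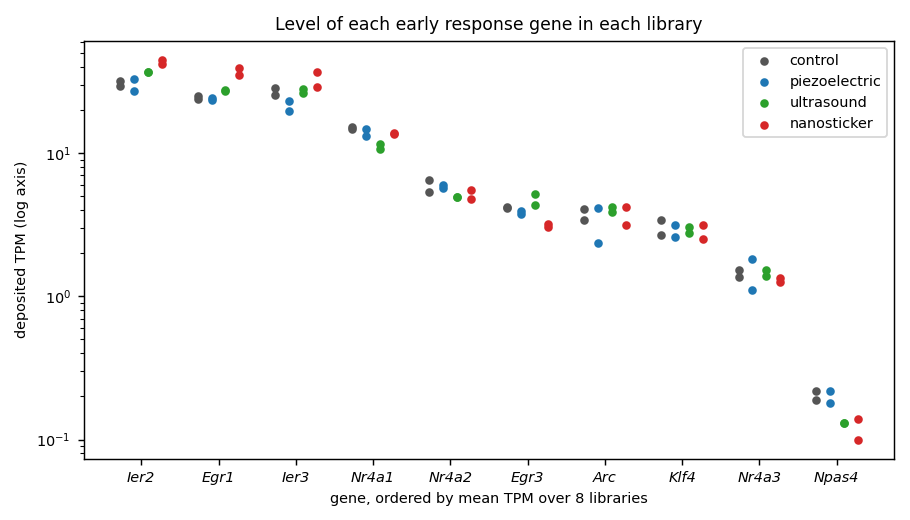
Deposited TPM of each of the 10 genes (log axis) in each of the 8 libraries, coloured by group and ordered by mean level. Ier2, Egr1 and Ier3 overlap between about 20 and 45 TPM, and Npas4 lies at or below 0.22 TPM.

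Within the Egr family Egr1 carried most of the message. It made up 77.3% to 87.6% of the summed TPM of Egr1, Egr2, Egr3 and Egr4 in a library, with Egr3 at 7.15% to 14.6% and Egr2 at 4.65% to 9.41%. Egr4 had 1 to 5 counts per library. Among the Nr4a receptors, Nr4a1 made up 62.1% to 69.5% of the summed TPM, Nr4a2 24.1% to 29.0% and Nr4a3 5.10% to 8.94%. The sum of the Nr4a family ran from 17.1 to 17.98 TPM in the ultrasound group and from 19.8 to 23.3 TPM in the other groups. The sum of the Egr family ran from 40.5 to 44.8 TPM in the nanosticker group and from 29.4 to 35.4 TPM in the others.

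The piezoelectric group was compared with control to see how the material alone acted on these genes. None of the 9 tested genes was called by edgeR's quasi-likelihood test, against a background of 0.23% of the 14336 tested genes in either direction, 0.16% higher and 0.0698% lower, and none was called by DESeq2 or limma-voom. Their median log2 fold change was -0.046, beside 0.0046 over all tested genes. Ier3 alone had an unadjusted p below 0.05, and the share of all genes at that threshold was not computed. Ier3 stood at 14.01 and 14.6 CPM (the count scaled for library size and not for length) in the controls and at 12.2 and 10.7 CPM with the material. Its libraries did not overlap, but its log2 fold change of -0.31 ± 0.13 (SE) had adjusted p = 0.576. The log2 fold change of Ier2 was -0.016 (95% confidence interval -0.25 to 0.22), that of Egr1 -0.033 (-0.24 to 0.18) and that of Nr4a2 0.011 (-0.29 to 0.31).

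Arc and Nr4a3 varied most between the piezoelectric replicates. Arc had 120 reads in replicate 1 and 69 in replicate 2, against 99 and 112 in the controls. Nr4a3 had 91 and 55 reads, against 70 and 72. Replicate 2 was the lower of the pair for both genes and its values lay below every other library. Their log2 fold changes with control were -0.17 ± 0.23 for Arc (adjusted p = 0.900) and 0.029 ± 0.23 for Nr4a3 (adjusted p = 0.986).

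The ultrasound group was compared with control to see how ultrasound acted on these genes where no piezoelectric label was given. One of the 9 tested genes was called, and it was lower: Nr4a1. The background was 7.19% of genes in either direction, 4.03% higher and 3.16% lower. The median log2 fold change of the 9 genes was 0.072, beside 0.0076 over all tested genes. Nr4a1 stood at 22.1 and 21.4 CPM in the controls, 19.3 and 21.8 CPM in the piezoelectric group, 15.9 and 17.8 CPM in the ultrasound group and 20.6 and 20.9 CPM in the nanosticker group. The ultrasound libraries were the lowest of the 8 and overlapped with no other group. Nr4a1 lies on chromosome 7 from 142899358 to 142920216 on the plus strand (gene identifier 79240, build Rnor 6.0), and no other gene of the table overlaps it.

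With ultrasound Nr4a1 had a log2 fold change of -0.37 ± 0.10 (SE; adjusted p = 0.0434 by edgeR), a level of 0.775 times control. This call was close to the threshold and ended under 11 of 17 alternatives, while its value stayed between -0.45 and -0.29. It ended by DESeq2 (adjusted p = 0.251), by limma-voom (0.0590), with the replicate number as a block (0.0620), with only the ultrasound and control groups in the fit (0.123) and without control replicate 1 (0.0564). It also ended without either ultrasound library (0.342 without replicate 1, 0.102 without replicate 2), either piezoelectric library (0.0599 and 0.0635) or either nanosticker library (0.0726 and 0.0741). The authors' deposited table gives a log2 fold change of -0.373 and a q-value of 0.714 for this gene and comparison.

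Neither of the other Nr4a receptors was called. Nr4a2 stood at 9.17 and 10.6 CPM in the controls and at 8.73 and 8.75 CPM with ultrasound (log2 fold change -0.18 ± 0.14, adjusted p = 0.548). Nr4a3 stood at 4.52 and 4.64 CPM and at 5.07 and 4.53 CPM (0.069 ± 0.23, adjusted p = 0.917), and its groups overlapped. The intervals of the 3 receptors overlap, from -0.58 to -0.15 for Nr4a1, from -0.48 to 0.12 for Nr4a2 and from -0.42 to 0.56 for Nr4a3, and a difference between the receptors was not tested.

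Egr1, Egr3, Ier2 and Arc were higher in both ultrasound libraries than in either control library, but none was called. The share of all genes that separated in this way was not computed, so the separation is a description only. Egr1 stood at 21.2 and 18.8 CPM in the controls and at 22.8 and 23.7 CPM with ultrasound (log2 fold change 0.22 ± 0.10, adjusted p = 0.232). Egr3 stood at 7.75 and 6.31 CPM and at 9.18 and 8.30 CPM (0.31 ± 0.16, adjusted p = 0.296). Ier2 stood at 27.0 and 23.0 CPM and at 30.6 and 31.2 CPM (0.31 ± 0.11, adjusted p = 0.124). Ier2 was called without control replicate 1, at 0.43 with adjusted p = 0.0131. Arc (0.17 ± 0.23), Ier3 (0.072 ± 0.13) and Klf4 (0.0011 ± 0.20) gave adjusted p of 0.762, 0.838 and 0.998.

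**Figure D2:**
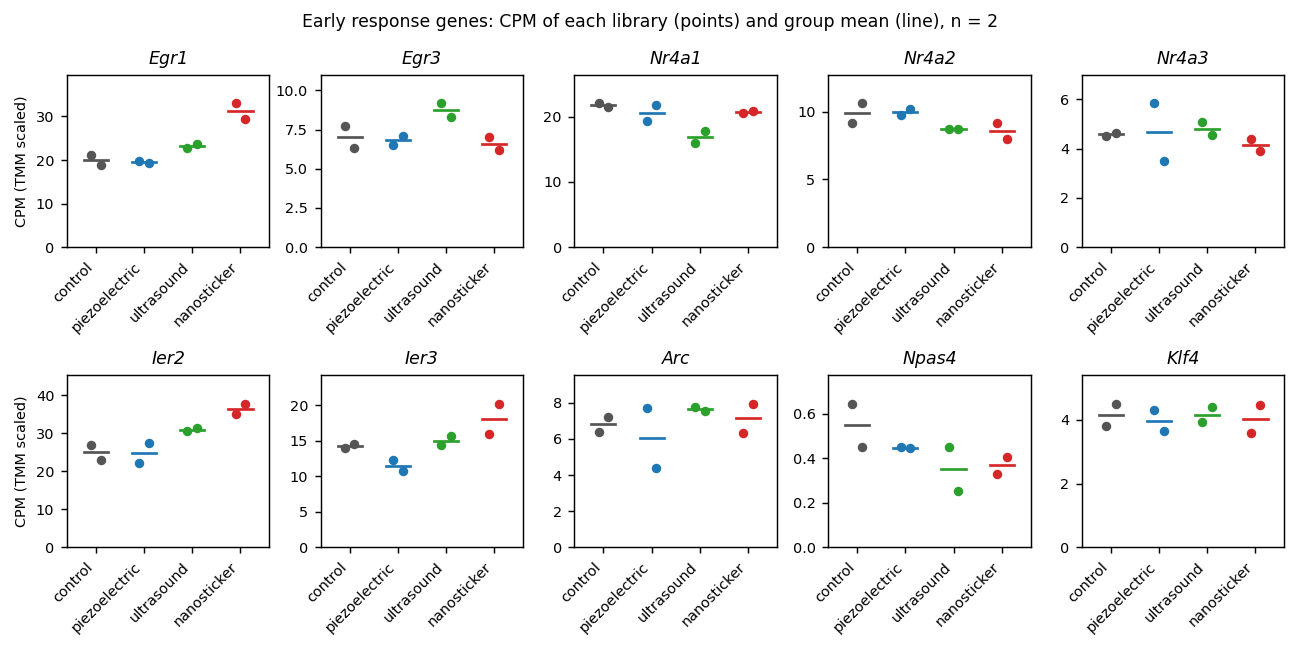
CPM of the 10 genes in each library (points) with the mean of each group (line), n = 2 per group, each axis starting at 0. Egr1 and Ier2 are highest in the 2 nanosticker libraries, Nr4a1 is lowest in the 2 ultrasound libraries, and the libraries of Klf4 overlap between all groups.

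The nanosticker group was compared with control to see how the nanostickers acted on these genes. Egr1 and Ier2 rose, 2 of the 9 tested genes, and none fell. The background was high here, at 37.5% of genes in either direction, 19.8% higher and 17.7% lower. Counted in either direction, the share of called members was below that of all genes, and counted as higher it was close to it. The shifts in the markers of the 6 lineages given above, from stem cells to fibroblasts, and of the endothelial marker Kdr move with this comparison. Without a scaling factor 2277 of all tested genes were higher and 3221 lower, against 2837 and 2541 with it. The median log2 fold change of the 9 genes was -0.052, beside 0.0064 over all tested genes.

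Egr1 had 329 and 292 reads in the controls, 308 and 304 in the piezoelectric group, 355 and 371 in the ultrasound group and 499 and 438 in the nanosticker group. In CPM this was 21.2 and 18.8, 19.7 and 19.4, 22.8 and 23.7, and 33.0 and 29.5 in the same order. Both nanosticker libraries lay above all others. Against control the log2 fold change was 0.64 ± 0.09 (adjusted p = 0.000132), or 1.56-fold, from 20.02 ± 1.72 to 31.3 ± 2.47 CPM (mean ± SD, n = 2). The call held under all 17 alternatives, with values from 0.56 without control replicate 2 to 0.73 without control replicate 1, and adjusted p of at most 0.00359, without nanosticker replicate 1. The authors' deposited table gives 0.629 with a q-value of 0.00418. Egr1 lies on chromosome 18 from 27657903 to 27660101 on the plus strand (gene identifier 24330, build Rnor 6.0).

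Ier2 had 418 and 357 reads in the controls, 345 and 428 in the piezoelectric group, 476 and 489 in the ultrasound group and 531 and 560 in the nanosticker group. The nanosticker libraries were again the highest, at 35.1 and 37.8 CPM, and the ultrasound libraries, at 30.6 and 31.2 CPM, lay between them and the other groups. Against control the log2 fold change was 0.54 ± 0.11 (adjusted p = 0.00139), or 1.46-fold, from 24.99 ± 2.83 to 36.5 ± 1.85 CPM. The call held under all 17 alternatives, with values from 0.43 without control replicate 2 to 0.66 without control replicate 1, and adjusted p of at most 0.0221, without nanosticker replicate 2. The authors' deposited table gives 0.530 with a q-value of 0.0132. Ier2 lies on chromosome 19 from 25774146 to 25775670 on the minus strand (gene identifier 494344).

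Ier3 did not pass the test against control. It stood at 15.95 and 20.2 CPM in the nanosticker libraries and at 14.01 and 14.6 CPM in the controls (log2 fold change 0.34 ± 0.13, adjusted p = 0.0562). The nanosticker replicates differed from each other by more than the lower of them differed from the controls. Without nanosticker replicate 1 the value was 0.50 and was called (adjusted p = 0.0212), and without nanosticker replicate 2 it was 0.16 (adjusted p = 0.472).

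The remaining members showed no call between nanosticker and control. Egr3, the paralog of Egr1, stood at 7.02 and 6.20 CPM against 7.75 and 6.31 CPM (log2 fold change -0.088, interval -0.44 to 0.26, adjusted p = 0.710). The value of Nr4a1 was -0.069 (-0.28 to 0.14), that of Nr4a2 -0.21 (-0.51 to 0.10), that of Nr4a3 -0.14 (-0.65 to 0.36), that of Arc 0.073 (-0.43 to 0.58) and that of Klf4 -0.052 (-0.49 to 0.39). Nr4a1 is the narrowest of these, and the Egr1 value of 0.64 lies outside its interval and those of Egr3, Nr4a2, Nr4a3, Arc and Klf4. The interval of Egr1 itself, 0.44 to 0.85, overlapped with that of Arc, and a difference between genes was not tested. Npas4 had 10 and 7 reads in the controls, 7 and 7 in the piezoelectric group, 7 and 4 in the ultrasound group and 5 and 6 in the nanosticker group. The sums of 17, 14, 11 and 11 reads have exact Poisson intervals that overlap, from 9.90 to 27.2 in the controls and from 5.49 to 19.7 in the nanosticker group. These cover counting error only. In a fit with no filter on low counts the log2 fold change of Npas4 with nanostickers was -0.57 (unadjusted p = 0.361, adjusted p = 0.571 by edgeR), and the authors' deposited table gives -0.591 with a q-value of 0.912. Both nanosticker libraries lay below both control libraries, and a difference of this size was not resolved at this depth.

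**Figure D3:**
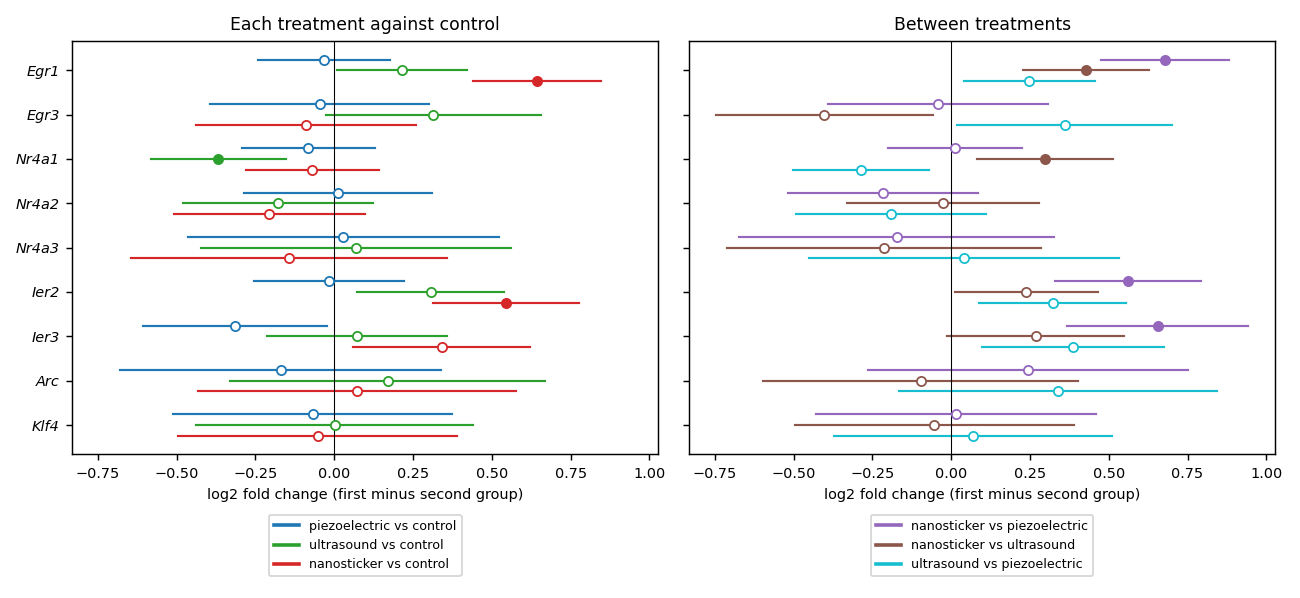
Log2 fold change of the 9 tested genes with its 95% confidence interval, each treatment against control (left) and between treatments (right), filled where the adjusted p is below 0.05. The nanosticker values of Egr1 (0.64) and Ier2 (0.54) are filled on the left, as is the ultrasound value of Nr4a1 (-0.37).

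The treatments were then compared with each other, since the comparisons with control share the control libraries and cannot show which treatments differ. Against the piezoelectric group, 3 of the 9 genes were higher in the nanosticker group and none was lower, beside a background of 36.4% of genes in either direction, 18.9% higher and 17.4% lower. On the log2 scale Egr1 was higher by 0.68 ± 0.09 (adjusted p = 9.03e-05) and Ier2 by 0.56 ± 0.11 (adjusted p = 0.00118). Ier3, at 12.2 and 10.7 CPM in the piezoelectric libraries and 15.95 and 20.2 CPM in the nanosticker libraries, rose by 0.66 ± 0.13 (adjusted p = 0.00173). All 3 calls held under 17 alternatives. Ier3 came closest to losing its call without nanosticker replicate 2 (0.48, adjusted p = 0.0359), and the authors' deposited table gives it 0.651 with a q-value of 0.0123. Ier3 lies on chromosome 20 from 3438798 to 3440002 on the minus strand (gene identifier 294235). Arc was not called (0.24 ± 0.23, adjusted p = 0.454), but without piezoelectric replicate 1, where only the library with 69 reads is left, its value was 0.70 with adjusted p = 0.0400.

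Against the ultrasound group, Egr1 and Nr4a1 were higher in the nanosticker group, 2 of 9 genes, beside a background of 34.4% in either direction, 17.6% higher and 16.9% lower. Egr1 rose by 0.43 ± 0.09 (adjusted p = 0.00289), and the call held under all 17 alternatives with values from 0.35 to 0.51. Nr4a1 rose by 0.30 ± 0.10 (adjusted p = 0.0349). This call ended by DESeq2 (adjusted p = 0.199), without a scaling factor (0.0659), without either ultrasound library (0.250 without replicate 1, 0.0520 without replicate 2) and without either nanosticker library (0.105 and 0.139). Ier2 (0.24 ± 0.10, adjusted p = 0.0991) and Egr3 (-0.40 ± 0.16, adjusted p = 0.0677) were not called. Both crossed the threshold when control replicate 1 or 2 was left out, although these libraries are in neither group of this contrast. Their removal alters the filter and the set of tested genes beside the shared spread. Without a scaling factor Egr3 also passed (-0.45, adjusted p = 0.0439). Ier3, at 0.27 (adjusted p = 0.132), passed only without nanosticker replicate 1 among the libraries left out (0.43, adjusted p = 0.0437).

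Between ultrasound and the piezoelectric material none of the 9 genes was called by edgeR, DESeq2 or limma-voom, beside a background of 3.5% of genes in either direction, 2.13% higher and 1.37% lower. By edgeR 5 had an unadjusted p below 0.05, namely Egr1 (0.25), Egr3 (0.36), Nr4a1 (-0.28), Ier2 (0.32) and Ier3 (0.39). Their adjusted p ran from 0.160 for Ier2 to 0.344 for Egr3. The background of 3.5% is at adjusted p below 0.05, and the share of all genes at the unadjusted threshold was not computed. Ier2 crossed the threshold when control replicate 1 or 2 was left out, although these libraries are in neither group of this contrast. Their removal alters the filter and the set of tested genes beside the shared spread.

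Ratios of read counts within a library need no scaling between libraries, and they separated Egr1 from its paralog. There were 4.71 and 4.76 reads of Egr1 per read of Egr3 in the nanosticker libraries. The other 6 libraries gave 2.48 to 3.02, with the control libraries at 2.74 and 2.98, so the nanosticker group did not overlap with them. The ratio of Egr1 to Nr4a1 was 0.962 and 0.877 in the controls, 1.02 and 0.889 in the piezoelectric group, 1.43 and 1.33 in the ultrasound group and 1.60 and 1.41 in the nanosticker group. Here the ultrasound and nanosticker libraries overlapped with each other and lay above the rest. Egr1 and Ier2 kept a similar ratio, 0.782 and 0.940 in the nanosticker libraries against 0.710 to 0.893 in the others. The ratios are given as a description, with no test. An exact permutation test between any 2 groups of 2 libraries cannot give a two-sided p below 0.333.

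**Figure D4:**
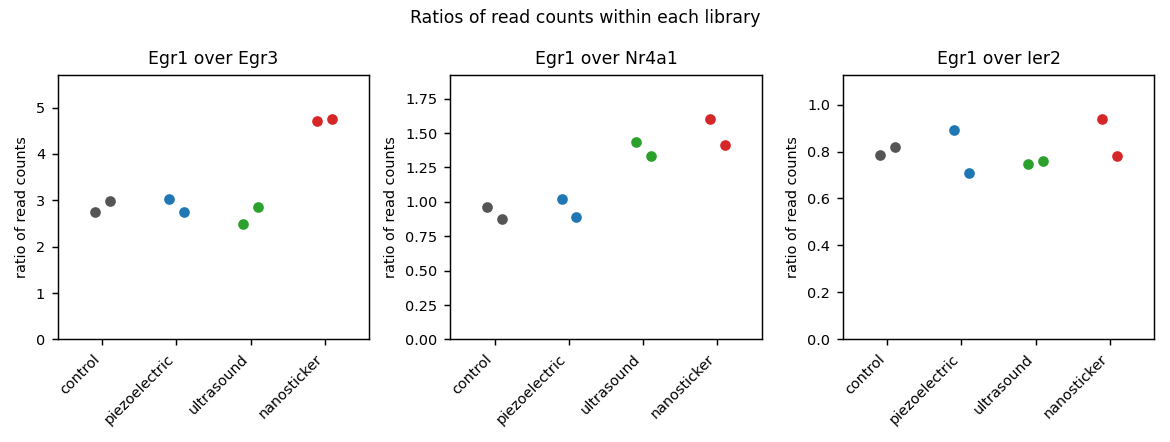
Ratio of read counts of Egr1 to Egr3, to Nr4a1 and to Ier2 in each library, by group, each axis starting at 0. The nanosticker libraries give 4.71 and 4.76 for Egr1 over Egr3, above the 2.48 to 3.02 of the other 6.

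The genes whose pattern over the 8 libraries was closest to that of a called member were found among 10935 genes with at least 5 CPM. Likeness was the root mean square difference of log2 CPM, each gene centred on its own mean, so it describes these libraries and their shared groups. Closest to Egr1 were Rap1a, a small GTPase (0.030), Cfl2, an actin-severing cofilin (0.045), and Hs2st1, a heparan sulfate sulfotransferase (0.051), while Egr1 itself ranged over 0.81. Closest to Ier2 were Troap (0.045), Il3ra, a cytokine receptor chain (0.071), and Plk1, a mitotic kinase (0.078). Closest to Nr4a1 were Ptger1, a prostaglandin E receptor (0.050), B3galt5 (0.050) and Sidt2 (0.051). Closest to Ier3 were Alg9 (0.079), the nuclear lamin gene Lmna (0.090) and Tradd, an adaptor of a tumour necrosis factor receptor (0.091). None of the 12 is one of the early genes studied.

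Other genes of the early response were taken from 6 lists with 83 genes in the table, of which 80 passed the filter on low counts. The background shares are those given above for each comparison, at adjusted p below 0.05. The lists were chosen with earlier results of these data known, so the share called in each is a description only. No share of all genes was computed for an unadjusted p below 0.05. With the piezoelectric material none of the 80 was called by edgeR, 15 had an unadjusted p below 0.05, and no list had more than 2 calls under any of the 17 alternatives. Of 8 AP-1 genes, whose products pair to bind the same DNA element, 5 rose and none fell with ultrasound. With nanostickers 5 rose and 1 fell, and the medians were 0.82 and 0.42. The shares called were 62.5% and 75%, beside 7.19% and 37.5% of all genes. Fos, at 698 and 691 reads in the controls, had 1278 and 1278 with ultrasound and 1594 and 1585 with nanostickers, with 834 and 775 in the piezoelectric group. Reads of Egr1 per read of Fos were 0.471 and 0.423 in the controls, 0.369 and 0.392 in the piezoelectric group, 0.278 and 0.290 with ultrasound and 0.313 and 0.276 with nanostickers, so that the last 2 groups overlapped. Junb rose by 0.76 with ultrasound and 1.28 with nanostickers on the log2 scale, whereas Fosl1 fell by 0.90 with nanostickers. Without ultrasound replicate 1 the AP-1 count with ultrasound was 3. Oligodendrocyte and fibroblast markers, given above, were also higher with ultrasound, and their part in these counts was not tested.

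Of 25 other primary response genes, 7 rose and 3 fell with ultrasound and 7 rose and 5 fell with nanostickers, with medians of 0.18 and 0.027. The shares called were 40% and 48%, beside 7.19% and 37.5% of all genes. Klf6, a relative of Klf4, rose by 0.83 with ultrasound and 0.42 with nanostickers. Gadd45b, a stress-response gene, rose by 1.36 with nanostickers, and Btg2, an antiproliferative gene, fell by 1.15. The ultrasound count was 4 without either ultrasound library, and the nanosticker count was 7 without nanosticker replicate 2. Egr2, the other paralog above the filter, was not called (0.27 and -0.039, adjusted p = 0.546 and 0.906).

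Of 11 activity-regulated effector genes, 4 rose with ultrasound and 5 rose and 3 fell with nanostickers, with medians of 0.27 and 0.52. The shares called were 36.4% and 72.7%, beside 7.19% and 37.5% of all genes. Vgf, a secreted neuropeptide precursor whose deposited counts were not whole numbers, rose by 0.79 with ultrasound and 1.62 with nanostickers. Homer1, a scaffold of the synapse, rose by 0.49 with nanostickers, while Rasgrp1 fell by 1.09. Arc was not called in either comparison. The ultrasound count was 1 without ultrasound replicate 1.

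Of 22 upstream factors and kinases, 1 rose with ultrasound, and 3 rose and 4 fell with nanostickers, with medians of 0.011 and 0.016. The shares called, 4.55% and 31.8%, were below the 7.19% and 37.5% of all genes. Mapk3, which encodes ERK1, rose by 0.24 with ultrasound, a call that ended without either ultrasound library, and by 0.92 with nanostickers. Mef2c, a factor of neurons and microglia among other cells, fell by 1.58 with nanostickers. There 5 of the 6 neuronal markers (Syt1 rose) and all 7 microglial markers were lower too. Their part in the fall of Mef2c was not tested. The ultrasound count was 5 without control replicate 1, 3 without control replicate 2 and 0 without either ultrasound library, and the nanosticker count was 4 without nanosticker replicate 2. Of the 5 partners of Egr and Nr4a proteins, Nab1, a corepressor of Egr1, rose by 0.21 with nanostickers (adjusted p = 0.0329 by edgeR). Rxrg, a retinoid receptor that can pair with Nr4a receptors, fell by 1.92. Its counts were low and uneven, at 10 and 25.9 in the control libraries and 4 and 5 in the nanosticker libraries. The share of partners called with nanostickers was 40%, beside 37.5% of all genes. The Nab1 call ended under 10 of 17 alternatives (adjusted p up to 0.221) and the Rxrg call under 4 of 15 (up to 0.224), both of them without control replicate 1 or either nanosticker library. Without control replicate 1 the only partner called was Rxra, another retinoid receptor (-0.59, adjusted p = 0.000675). Without either nanosticker library no partner was called. Without control replicate 2, either piezoelectric library or ultrasound replicate 2, Rxrg alone was called. With ultrasound no partner was called, except that Rxra was called higher without control replicate 2 (0.51, adjusted p = 0.0100). Of 9 other Klf factors, 1 rose and 1 fell with ultrasound and 1 rose and 2 fell with nanostickers, with medians of -0.17 and -0.14. The shares called were 22.2% and 33.3%, beside 7.19% and 37.5% of all genes. These Klf counts were 4 and 5 without control replicate 1, the nanosticker count was 5 without control replicate 2 and 0 without nanosticker replicate 2, and the ultrasound count was 0 without either ultrasound library.

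**Figure D5:**
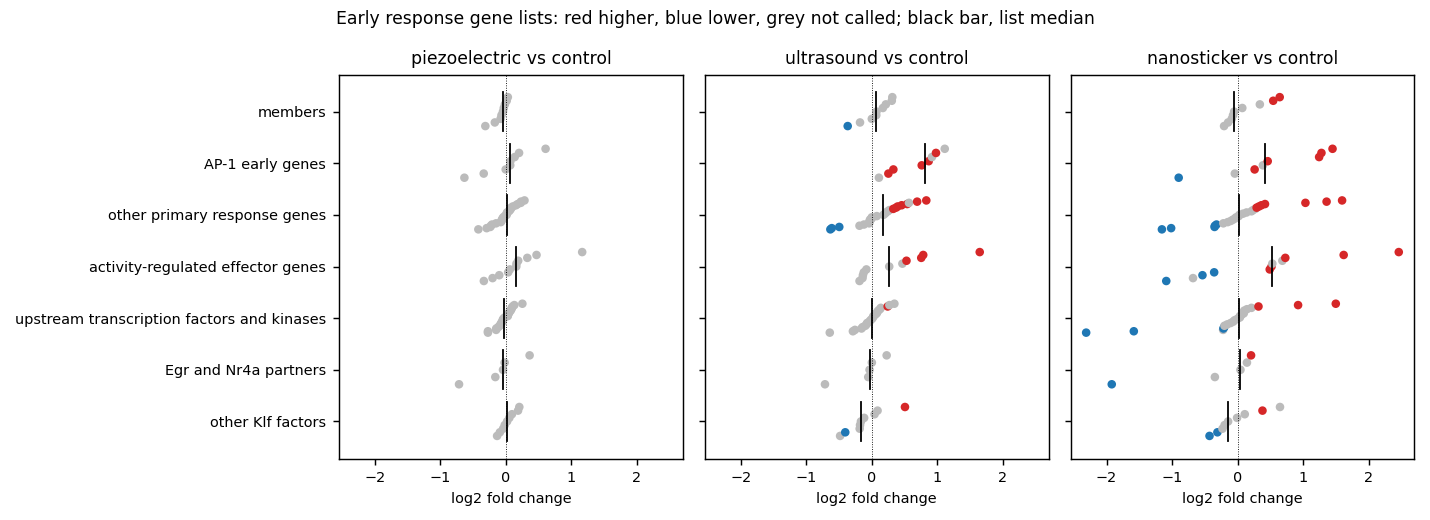
Log2 fold change of the 9 tested members and of the genes of the 6 lists, for each treatment against control, in red where higher, blue where lower and grey where not called, with the list median as a black bar. The members span -0.37 to 0.64, while AP-1 genes reach above 1 in the nanosticker comparison.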

How the data were processed

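Total RNA of the 8 samples was sequenced. The authors deposited a single table holding, per the file headers, a read count and a TPM value per gene and library. The deposited values are estimated counts, 10.5% of them not whole at a tolerance of 0.005; those of the 10 members were whole throughout. TPM was scaled by the authors for length and library, per the file headers. The authors' q-values (adjusted p-values) come from DESeq2, per the file headers, which name no tool for their log2 fold changes. The submitters' processing notes name Rnor 6.0 as build. Aligner, counting tool and strand setting: not given in the sources used here.

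Counts were rounded and analysed with edgeR 4.0.16 in R 4.3.3 (filterByExpr, TMM scaling, robust quasi-likelihood fit). All 8 libraries entered 1 model with a mean per group and 4 residual degrees of freedom. Two-sided tests were adjusted by Benjamini-Hochberg over 14336 genes at 0.05. The standard error is the log2 fold change over the square root of F. The steps were tested on simulated counts. Alternatives were DESeq2 1.42.0, limma-voom 3.58.1, other scalings and filters, the replicate number as a block, models restricted to the groups compared, removal of a length trend, and each library left out. List counts under these alternatives, and Npas4 with no filter, were added after seeing the data. The members and lists were chosen with earlier results of these data known. Members are always named. Genes of a list were picked from the up to 4 called ones with the smallest adjusted p, with ultrasound or nanostickers against control. Not all of these are named, and a gene picked in 1 comparison may have its value given in the other. Rxra was named only for its calls under alternatives. Egr2 and Egr4 were singled out as paralogs.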

Additional observations from a re-analysis of the deposited data

How the results depend on the processing

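Over 17 alternatives the calls of Egr1 and Ier2 in the nanosticker group, against control and the piezoelectric group, of Egr1 against ultrasound and of Ier3 against the piezoelectric group kept their direction and side of the threshold. No called member changed sign. The 1 call with ultrasound against control became 0 by DESeq2, by limma-voom, with the replicate block and with only the groups compared, and ran from 0 to 1 over libraries left out. The 2 calls of nanosticker against ultrasound became 1 by DESeq2 and 4 with only the groups compared, and ran from 1 to 4. The 0 calls of ultrasound against the piezoelectric group became 2 with only the groups compared and ran from 0 to 1. Over libraries left out the count was 2 to 3 for nanosticker against control, 3 to 4 against the piezoelectric group and 0 for the piezoelectric group against control. The replicate block ended only the Nr4a1 call among the members. The differences between replicate 1 and replicate 2 were only weakly correlated between groups, with both signs (Pearson -0.136 to 0.135 across genes). With 1 such difference per group this cannot show whether same-numbered replicates were prepared together.

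Over all genes, the 33 calls of piezoelectric against control became 81 with no filter, 20 by limma-voom, 138 with the length trend removed and 10 with only the groups compared, and ran from 13 to 1131 over libraries left out. The 1031 of ultrasound against control became 636 by DESeq2, 1583 with the length trend removed and 478 with only the groups compared, and ran from 377 to 2192. The 502 of ultrasound against the piezoelectric group became 846 with the length trend removed and 1214 with only the groups compared, and ran from 157 to 1190. The 4938 of nanosticker against ultrasound ran from 3199 to 6251. The cause of these changes was not tested. With 54 to 165 reads a library, Klf4, Nr4a3, Arc, Egr3 and Nr4a2 had wide intervals, and Npas4, at 4 to 10 reads, was tested only in the fit with no filter, where its adjusted p was 0.571 to 0.998.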

Other observations

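Egr3 read differently on the deposited TPM scale than by its counts. In TPM it stood at 4.20 and 4.14 in the controls and at 3.20 and 3.07 in the nanosticker libraries, without overlap, whereas its CPM overlapped between these groups. Its reads per TPM, set against those of Egr1, Ier2 and Ier3, which have 1 transcript each in the table, were 1.26 and 1.16 times the control mean in the nanosticker libraries. The other 6 libraries gave 0.942 to 1.09. The table lists 4 transcripts for Egr3. Nr4a1, with 4 transcripts, kept a value between 0.998 and 1.004 in every library, and Nr4a3, with 6, stayed between 0.948 and 1.018. The spread of the members also differed, with the highest library 1.26 times the lowest for Klf4, 1.76 times for Egr1 and 1.89 times for Ier3 in CPM.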
